A study of Saccharomyces cerevisiae with 16 samples.

Results

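Arginine biosynthesis genes were followed in EC1118, a commercial wine strain of Saccharomyces cerevisiae, across 4 nitrogen conditions. The 8 genes considered were ARG1, ARG2, ARG3, ARG4, ARG5,6, ARG7, ARG8 and CPA1, and members were the probes whose symbol in the platform annotation is one of these names. Of the 8 genes, 7 were measured, each by 1 probe, among 6248 features in all. ARG5,6 had no probe under its symbol and was not analysed here.

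The 4 groups were cultures fed ammonium (3 samples), cultures fed valine (3 samples), the same continuous cultures without addition (4 samples) and batch cultures in stationary phase (4 samples). All were grown on a synthetic grape must with glucose at 200 g/L and assimilable nitrogen at 100 mg/L. The continuous culture ran through a chain of tanks, and resting cells were taken from the third tank, where nitrogen had run out. Ammonium or valine was then supplied to that tank to give 100 mg/L additional nitrogen, and samples were drawn 24 h apart. Batch cultures were kept at 28 °C and sampled at the residual glucose of the third tank without addition, 164 g/L. The labels give neither the temperature of the continuous culture nor the residual glucose with a supplement. Samples of a continuous condition were successive draws, so p-values measure the spread between draws, and condition cannot be told apart from time in the run.

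Yeast builds arginine from glutamate. The first steps, in the mitochondrion, make ornithine through acetylated intermediates, and ornithine leaves by the carrier Ort1. In the cytosol ornithine is joined to carbamoyl phosphate and converted in the last steps, with aspartate, to arginine. Gcn4 activates many amino acid genes on amino acid shortage, whereas the Arg80, Arg81, Arg82 and Mcm1 proteins, in the presence of arginine, repress several synthesis genes (ARG1, ARG3, ARG5,6 and ARG8) and induce the breakdown genes CAR1 and CAR2. CPA1 stands apart, since a short reading frame in its leader reduces its translation and the stability of its mRNA when arginine is plentiful.

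Values are deposited log2 intensities of 1-colour arrays, given as means ± SD over samples, and differences are log2 fold changes ± SE from limma. A gene was called when its Benjamini-Hochberg adjusted p over all 6248 features was under 0.05. Array medians lay between 9.09 and 9.10. These levels are relative to all RNA on an array, so fewer cells with a transcript and less transcript per cell cannot be told apart. Levels of different genes come from different probes and were not compared with each other.

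Ammonium sample 2 stood apart. It was the lowest of the 3 ammonium samples in 7 of the 7 measured genes, with a median deviation from the others of -0.42, and over all features its deviations had an SD of 0.20. Batch sample 1 and valine sample 3 also lay farther from their groups than the others, with SDs of 0.24 and 0.18. Batch sample 3 was close behind at 0.17, so the samples that stood apart are not sharply divided from the rest. Each sample was set against the mean of the others of its group, which were fewer with ammonium and valine. The RNA of ammonium sample 3 was measured once on each slide, and the mean of the pair was used. The pair differed with an SD of 0.17 over all features, and for ARG8 and CPA1 the second slide differed from the first by -0.56 and 0.37. A sample whose labels name both supplements was left out of every comparison.

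With valine all 6 measured ARG genes were higher than without addition, and with ammonium all but ARG3 were. CPA1 was not called higher with either supplement. After ammonium 5 of the 7 measured genes rose and 1, CPA1, fell, with a median log2 fold change of 1.40. Over all features the median was -0.02, with 32.1% called higher and 35.5% called lower. After valine 6 of 7 rose and the other, CPA1, was not called, with a median of 1.56, against -0.01 over all features, of which 32.3% were called higher and 35.6% lower. Both contrasts use the same 4 samples without addition and are therefore not independent.

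**Figure D1:**
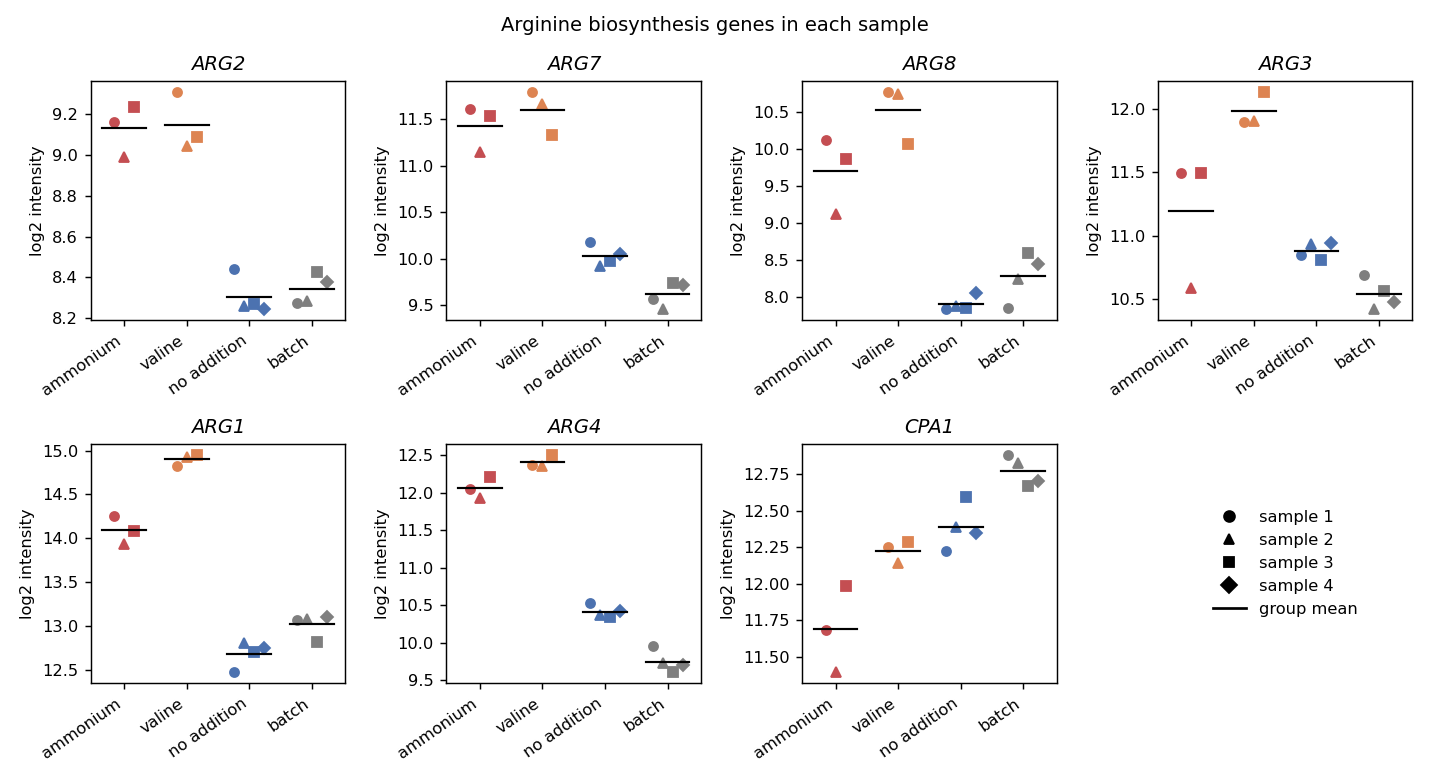
Log2 intensity of each measured arginine gene (y axis) in every sample, by group (x axis), with the group mean as a line and the marker giving the sample number. The ARG genes are higher with ammonium and valine than without addition, except ARG3 in ammonium sample 2 at 10.59, and CPA1 is highest in batch.

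The mitochondrial branch begins with ARG2, the acetylglutamate synthase that commits glutamate to the pathway. Its log2 intensities were 9.16, 8.99 and 9.24 with ammonium and 9.31, 9.05 and 9.09 with valine. Without addition they were 8.44, 8.26, 8.27 and 8.24. Every supplemented sample lay above every unsupplemented one, and the ranges of the supplements overlapped. ARG2 rose by 0.83 ± 0.08 with ammonium (1.78-fold, adjusted p = 2.85e-07) and by 0.85 ± 0.08 with valine (1.80-fold, adjusted p = 2.48e-07). Its rises were the smallest among the called increases in either contrast.

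ARG8 encodes the acetylornithine aminotransferase and had the highest fitted rise against no addition with either supplement. It stood at 10.13, 9.12 and 9.87 with ammonium and at 10.78, 10.74 and 10.08 with valine, against 7.83, 7.88, 7.86 and 8.05 without addition. Ammonium sample 2 was the lowest of its group, yet still above all samples without addition. The increase was 1.80 ± 0.23 with ammonium (3.48-fold, adjusted p = 5.84e-06) and 2.62 ± 0.23 with valine (6.17-fold, adjusted p = 1.25e-07). ARG8 was also the most variable member, with a pooled SD within groups of 0.35, against 0.11 for ARG2. With ammonium its change was 2.09 without ammonium sample 2 and 1.59 without ammonium sample 1, where ARG4 was at 1.65.

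ARG7 encodes the ornithine acetyltransferase that frees ornithine. It stood at 11.61, 11.15 and 11.53 with ammonium and at 11.79, 11.67 and 11.33 with valine, against 10.18, 9.92, 9.98 and 10.05 without addition. It averaged 11.43 ± 0.25 with ammonium (n = 3), 11.60 ± 0.24 with valine (n = 3) and 10.03 ± 0.11 without addition (n = 4). Supplemented samples ranged from 11.15 to 11.79, above the highest value without addition, 10.18. ARG7 rose by 1.40 ± 0.12 with ammonium (adjusted p = 1.42e-07) and by 1.56 ± 0.12 with valine (adjusted p = 4.86e-08). The ornithine carrier ORT1, which is not one of the 8 genes, rose by 0.52 ± 0.09 with ammonium (adjusted p = 7.74e-05) and by 0.90 ± 0.09 with valine (adjusted p = 3.41e-07).

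ARG3, the ornithine carbamoyltransferase that opens the cytosolic branch, was called with valine and not with ammonium. Its intensities were 11.50, 10.59 and 11.50 with ammonium and 11.90, 11.91 and 12.13 with valine, against 10.85, 10.93, 10.81 and 10.94 without addition. The valine samples were above all others. Ammonium samples 1 and 3 were above every sample without addition and ammonium sample 2 was below them all. The increase of 1.10 ± 0.17 with valine was called (adjusted p = 3.95e-05). The difference of 0.31 ± 0.17 with ammonium was not (adjusted p = 0.114, 95% interval -0.05 to 0.67), and without ammonium sample 2 it was 0.61 and called (adjusted p = 1.87e-05).

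ARG1 encodes argininosuccinate synthetase, which brings in the nitrogen of aspartate. It reached 14.26, 13.94 and 14.09 with ammonium and 14.83, 14.93 and 14.95 with valine, against 12.48, 12.81, 12.70 and 12.75 without addition. No 2 of these 3 groups overlapped. The increases were 1.41 ± 0.09 with ammonium (2.66-fold, adjusted p = 6.83e-09) and 2.22 ± 0.09 with valine (4.66-fold, adjusted p = 1.06e-10). Array maxima lay between 15.82 and 15.96, so differences at the level of ARG1 may be compressed.

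ARG4 encodes the argininosuccinate lyase that releases arginine. Its values were 12.05, 11.92 and 12.21 with ammonium and 12.36, 12.36 and 12.51 with valine, against 10.53, 10.36, 10.34 and 10.42 without addition. Again no 2 of these groups overlapped. ARG4 rose by 1.65 ± 0.09 with ammonium (3.13-fold, adjusted p = 6.72e-10) and by 2.00 ± 0.09 with valine (3.99-fold, adjusted p = 1.35e-10).

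CPA1 encodes the small subunit of the carbamoyl phosphate synthetase that serves arginine, and it took another course. It was at 11.69, 11.39 and 11.98 with ammonium and at 12.25, 12.14 and 12.28 with valine, against 12.22, 12.39, 12.60 and 12.35 without addition. The ammonium samples lay below all others of the continuous culture, whereas valine samples and samples without addition overlapped. CPA1 fell by 0.70 with ammonium (-0.70 ± 0.12, adjusted p = 7.81e-05). With valine the difference was -0.16 ± 0.12 (adjusted p = 0.226, 95% interval -0.41 to 0.08). Within slide 1 the ammonium difference was -0.43 (adjusted p = 0.0576), and within slide 2 it was -0.70 (adjusted p = 0.00793). Slide 1 held 1 ammonium and 1 no-addition sample, so its p-value takes the spread from the other groups. Without ammonium sample 2 it was -0.56 (adjusted p = 3.22e-04).

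**Figure D2:**
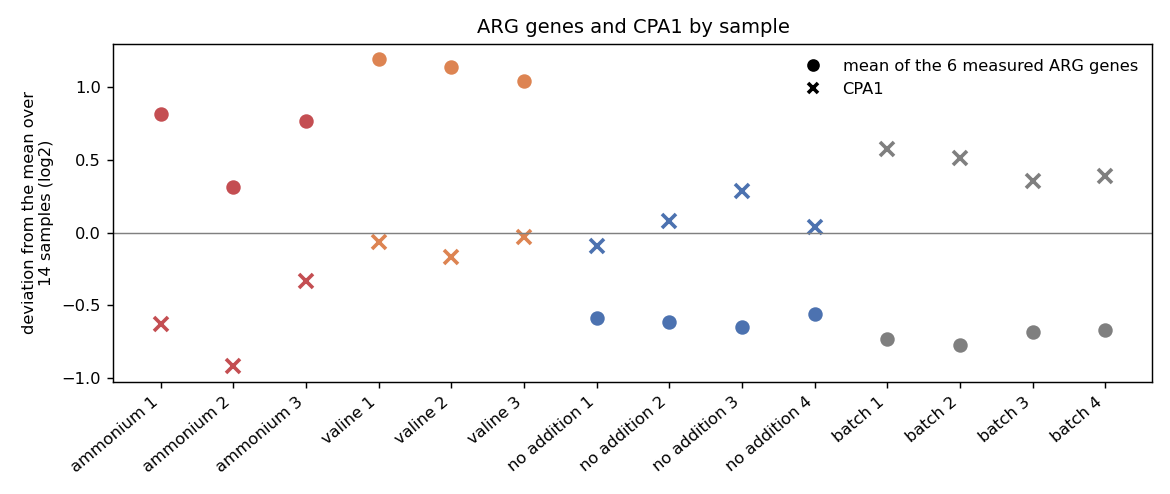
Deviation from the mean over 14 samples (y axis, log2) for the average of the 6 measured ARG genes (circles) and for CPA1 (crosses) in each sample (x axis). The ARG average runs from 1.04 to 1.19 with valine and from 0.31 to 0.81 with ammonium, while CPA1 is lowest with ammonium and highest in batch.

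Ammonium and valine were set against each other at equal added nitrogen, which is also the direct test of whether their effects differ. Of the 7 genes 5 were lower with ammonium than with valine and all 7 differences were below 0, with a median of -0.54. Over all features 8.79% were called lower and 7.59% higher, with a median of 0.01. The differences were -0.81 ± 0.10 for ARG1 (adjusted p = 1.18e-04), -0.78 ± 0.18 for ARG3 (adjusted p = 0.00927), -0.82 ± 0.24 for ARG8 (adjusted p = 0.0336), -0.54 ± 0.12 for CPA1 (adjusted p = 0.00935) and -0.35 ± 0.09 for ARG4 (adjusted p = 0.0206). ARG2 differed by -0.02 (95% interval -0.20 to 0.16) and ARG7 by -0.17 (95% interval -0.45 to 0.12), and neither was called.

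These calls were not equally firm. The call of ARG8 was lost without any 1 of ammonium samples 2 and 3 or valine samples 1 and 2, at -0.91 to -0.53 (adjusted p = 0.0536 to 0.137), and with ammonium sample 3 taken from its first slide alone (-0.73, adjusted p = 0.0764). That of ARG4 was lost without ammonium sample 1 (-0.34, adjusted p = 0.053), ammonium sample 2 or valine sample 3 (-0.30, adjusted p = 0.0591). When only these groups were fitted, ARG3 (adjusted p = 0.0652) and ARG8 (adjusted p = 0.0923) were not called. In ARG8 the groups overlapped, at 10.13 in ammonium sample 1 and 10.08 in valine sample 3. Without ammonium sample 2, the calls of ARG4 (-0.28, adjusted p = 0.0783) and ARG8 (-0.53, adjusted p = 0.124) were lost, while ARG1 (-0.73), ARG3 (-0.48) and CPA1 (-0.39) were still called. With slide as a block ARG4 (-0.32, adjusted p = 0.0597) and ARG8 (-0.71, adjusted p = 0.0974) were lost too. Within slide 1 no gene of the 5 was called by limma (3 of the 7 had an unadjusted p under 0.05), with differences of -0.86, -0.41, -0.15, -0.61 and -0.40 for ARG1, ARG3, ARG4, ARG8 and CPA1. Within slide 2 they were -0.84, -0.94, -0.45, -0.46 and -0.53, and ARG1 alone was called (adjusted p = 0.0105). Slide 1 held 1 ammonium sample and slide 2 held 1 valine sample, each assumed to vary like the other groups. Ammonium sample 3 was on both slides, so the slides are not independent.

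**Figure D3:**
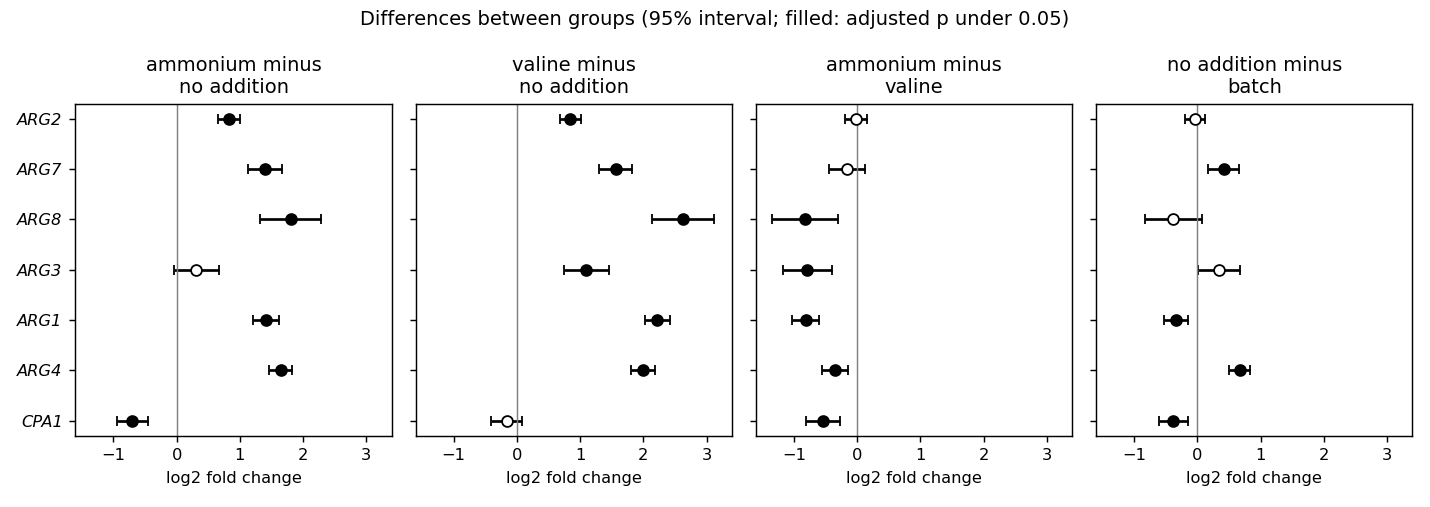
Log2 fold change (x axis) of each measured gene (y axis) in 4 comparisons, with the 95% interval, filled where the adjusted p was under 0.05. ARG8 has the widest intervals, and ARG1, ARG3 and ARG8 have the largest gaps between ammonium and valine, from -0.82 to -0.78.

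Of 9 genes of arginine breakdown and polyamine synthesis, 2 (CAR1 and CAR2) were higher with ammonium than with valine, 1 (PUT2 of proline use) was lower and 6 were not called, with a median of -0.04. Among all features 7.59% were called higher and 8.79% lower, so 1 of 9 lower lay near the background. PUT2 differed by -0.27 ± 0.06 (adjusted p = 0.011). That call was lost when only these groups were fitted (adjusted p = 0.0557) and without ammonium sample 3 (adjusted p = 0.0506) or valine sample 2 (adjusted p = 0.0646). CAR1, arginase, averaged 10.15 ± 0.21 with ammonium (n = 3) and 9.63 ± 0.18 with valine (n = 3), a difference of 0.53 ± 0.13 (adjusted p = 0.0163). CAR2, the ornithine aminotransferase, averaged 10.22 ± 0.19 with ammonium and 9.80 ± 0.14 with valine, a difference of 0.42 ± 0.10 (adjusted p = 0.00942). Against no addition, CAR1 fell with valine (-0.61 ± 0.12, adjusted p = 5.56e-04), as did CAR2 (-0.48 ± 0.09, adjusted p = 2.27e-04). With ammonium the differences were -0.08 for CAR1 and -0.07 for CAR2 and were not called. The CAR1 difference was not called with slide as a block (0.43, adjusted p = 0.0522) or without ammonium sample 2 (0.41, adjusted p = 0.067), valine sample 1 (0.47, adjusted p = 0.0677) or valine sample 2 (0.48, adjusted p = 0.0765). That of CAR2 was not called when only these groups were fitted (adjusted p = 0.0503) or without the 3 samples that stood apart (0.27, adjusted p = 0.0595). Slide 1 held 1 ammonium sample and slide 2 held 1 valine sample, so single slides give only sizes. Within slides 1 and 2 these were 0.44 and 0.35 for CAR1, 0.30 and 0.61 for CAR2, and -0.31 and -0.23 for PUT2.

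Resting cells of the third tank were next set against batch cells with as much glucose left. Of the 7 genes 2 were higher without addition than in batch, 2 were lower and 3 were not called, with a median of -0.04. Over all features 30.3% were higher and 27% lower, so the counts among the arginine genes lay near the background. ARG4 averaged 10.41 ± 0.09 without addition (n = 4) and 9.75 ± 0.15 in batch (n = 4), and was higher by 0.67 ± 0.08 (adjusted p = 6.23e-06). ARG7 was higher by 0.41 ± 0.11 (adjusted p = 0.00632). ARG1 was lower by -0.34 ± 0.09 (adjusted p = 0.00393), and CPA1 by -0.38 ± 0.11 (adjusted p = 0.00693). For CPA1 the values of 12.22 to 12.60 without addition all lay below 12.67 to 12.88 in batch. Batch values of ARG1 were 13.07, 13.08, 12.82 and 13.11, all above those without addition. Batch values of ARG4 were 9.96, 9.73, 9.61 and 9.70, and those of ARG7 were 9.57, 9.46, 9.74 and 9.72, all below those without addition.

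The other 3 were not called in this comparison. ARG2 differed by -0.04 (95% interval -0.19 to 0.12). ARG3 differed by 0.35 ± 0.15 (adjusted p = 0.0703), with no overlap between 10.81 to 10.94 without addition and 10.42 to 10.69 in batch. It was called without ammonium sample 2, which enters only the shared estimate of the spread (adjusted p = 6.54e-04). ARG8 differed by -0.38 ± 0.21 (adjusted p = 0.137), with batch values of 7.86, 8.24, 8.60 and 8.45 in samples 1 to 4. It was called without batch sample 1 (-0.52, adjusted p = 0.0395). Within slide 2, where batch has 1 sample, ARG1 (-0.33, adjusted p = 0.0597) and CPA1 (-0.38, adjusted p = 0.268) were not called.

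Fed cells were also set against batch. With ammonium 6 genes were higher than in batch and CPA1 was lower, with a median of 1.08, where 33.2% of all features were higher and 35.5% lower. With valine 6 were likewise higher and CPA1 lower, with a median of 1.88, where 31.6% were higher and 34.8% lower. ARG4 showed the largest difference in both, at 2.31 ± 0.09 with ammonium (adjusted p = 1.05e-11) and 2.66 ± 0.09 with valine (adjusted p = 3.11e-12). CPA1 differed by -1.08 ± 0.12 (adjusted p = 9.21e-07) and -0.54 ± 0.12 (adjusted p = 7.32e-04). The ARG3 difference with ammonium, 0.66 ± 0.17 (adjusted p = 0.00278), rested on groups that overlapped, and it was 0.96 without ammonium sample 2.

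Across the 4 groups the order of levels therefore differed by gene. ARG1 and ARG8 ran valine, ammonium, batch, no addition, with the last pair of ARG8 not called apart. ARG3, ARG4 and ARG7 ran valine, ammonium, no addition, batch. In this order ARG3 was not called between ammonium and no addition or between no addition and batch, and ARG7 was not called between valine and ammonium. ARG2 formed a supplemented pair and an unsupplemented pair, with neither pair called apart. CPA1 ran batch, no addition, valine, ammonium, and no addition and valine were not called apart.

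The members were then compared by their profiles, each centred on its mean over the 14 samples, as the root mean square difference in log2 intensity. Profiles were not scaled, so this difference reflects how far each gene moved as well as the shape of its course. Between ARG genes this difference ran from 0.31 for ARG4 and ARG7 to 0.73 for ARG2 and ARG4, and between CPA1 and the ARG genes from 0.76 for ARG2 to 1.44 for ARG4. No member had another member among its 3 nearest genes. ARG1 was nearest to YMC2, a mitochondrial carrier (0.20), the aldehyde dehydrogenase gene ALD5 (0.23) and the oxaloacetate carrier gene OAC1 (0.25). ARG4 was nearest to the oxodicarboxylate carrier gene ODC2 (0.12), BAT1 of branched-chain amino acid synthesis (0.14) and PSA1 of mannose activation (0.18). ARG3 was nearest to ACM1 (0.15), SKG6 and ORT1 (both 0.20).

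The remaining neighbours were mixed in function. For ARG2 they were HCR1, CAF20 and IES5 (all 0.09), of which the first pair encode factors of translation initiation. For ARG7 they were BNA3 of kynurenine metabolism (0.13), the uridine hydrolase gene URH1 (0.14) and POL30, the replication clamp (0.15). For ARG8 they were the cysteine transporter gene YCT1 (0.24), the leucyl-tRNA synthetase gene CDC60 (0.27) and the beta-lyase gene STR3 (0.28). For CPA1 they were GEP4 of cardiolipin synthesis (0.17), MTC4 and the palmitoyltransferase gene ERF2 (both 0.18). The mean of all 7 members was nearest to RMD6 and the chaperone gene KAR2 (both 0.11), SPC29 of the spindle pole body and the asparagine synthetase gene ASN1 (both 0.12) and LYS4 (0.14). ARG2 and CPA1 also varied least themselves, with root mean square deviations of 0.42 and 0.41, against 1.11 for ARG4. A small difference between such genes need not mean a like course, and a large one from ARG4 need not mean an unlike course.

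Among partners of the pathway, ODC2 rose by 1.71 ± 0.08 with ammonium (adjusted p = 2.01e-10) and by 1.78 ± 0.08 with valine (adjusted p = 1.70e-10), while its paralogue ODC1 fell by 1.31 with ammonium (-1.31 ± 0.07, adjusted p = 6.44e-10) and by 0.47 with valine (-0.47 ± 0.07, adjusted p = 2.29e-05). Both encode carriers of oxodicarboxylates such as oxoglutarate. Of the 4 partners measured 2 rose and 1 fell with ammonium, and 2 rose and 2 fell with valine. Over all features 32.1% were called higher and 35.5% lower with ammonium, and 32.3% and 35.6% with valine. Counts of so few genes cannot be set apart from these shares.

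Regulators of the pathway are few, and their counts are set beside the 32.1% higher and 35.5% lower of all features with ammonium and the 32.3% and 35.6% with valine. Of 7 regulators 1 rose and 3 fell with ammonium, with a median of -0.15, and 2 rose and 3 fell with valine, with a median of 0.14. ARG80 rose by 0.51 ± 0.11 with ammonium (adjusted p = 9.70e-04) and by 0.55 ± 0.11 with valine (adjusted p = 4.94e-04). It was dim, at 6.96 ± 0.12 without addition (n = 4). Its difference was 0.65 with ammonium within slide 1 (1 ammonium sample) and 0.41 with valine within slide 2 (1 valine sample). ARG82, an inositol polyphosphate kinase, fell by 0.78 with ammonium (-0.78 ± 0.08, adjusted p = 5.41e-07) and by 0.54 with valine (-0.54 ± 0.08, adjusted p = 2.37e-05). Within slide 1, with 1 no-addition sample, the ARG82 difference with valine was -0.36. ARG81 was at -0.12 with ammonium, not called, and rose by 0.19 ± 0.06 with valine (adjusted p = 0.00969). The ARG81 call was lost without valine sample 1 (0.15, adjusted p = 0.0538), within slide 1 (0.28, adjusted p = 0.06) and within slide 2 (0.08, adjusted p = 0.472). GCN4 mRNA, whose protein output is set mainly by translation, was at -0.15 with ammonium (adjusted p = 0.117) and 0.14 with valine (adjusted p = 0.136). Over the alternatives its ammonium difference ran from -0.22 to 0.20. Between the supplements 2 of 7 regulators were lower with ammonium, beside 8.79% of all features. These were GCN4 (-0.28 ± 0.08, adjusted p = 0.0351) and ARG81 (-0.31 ± 0.06, adjusted p = 0.00466). The GCN4 call was kept in 18 of 27 alternatives and the ARG81 call in 25. Without addition, GCN4 (-0.45 ± 0.07), ARG80 (-0.66 ± 0.10) and ARG81 (-0.35 ± 0.05) were all lower than in batch (adjusted p = 1.12e-04, 8.07e-05 and 6.71e-05).

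In breakdown and polyamine synthesis, PUT1 and PUT2 of proline use fell by 1.14 and 1.62 with ammonium and by 1.04 and 1.35 with valine (adjusted p at most 4.96e-08). Of the 9 genes 3 rose and 3 fell with ammonium, and 2 rose and 5 fell with valine. Over all features 32.1% were called higher and 35.5% lower with ammonium, and 32.3% and 35.6% with valine. With ammonium the counts of the 9 genes lay near these shares. CAR1 was 1.78 ± 0.12 higher without addition than in batch (adjusted p = 2.12e-08), and CAR2 was 0.54 ± 0.08 higher (adjusted p = 6.52e-05). Of 8 genes for arginine uptake and vacuolar transport, 5 fell with ammonium and the highest difference was 0.03. Among those that fell were the arginine permease CAN1 (-0.68 ± 0.10, adjusted p = 3.75e-05) and the basic amino acid permease ALP1 (-1.28 ± 0.07, adjusted p = 7.73e-10). ALP1 was dim, at 7.69 ± 0.02 without addition (n = 4) and 6.42 ± 0.07 with ammonium (n = 3). With valine 3 rose and 1, ALP1, fell, and CAN1 at -0.22 was not called (adjusted p = 0.0731). The share that rose with valine lay near the 32.3% over all features.

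Genes for the precursors rose in part. Of 9 genes for glutamate, glutamine and aspartate, 5 rose and 3 fell with ammonium and 7 rose and 2 fell with valine. The shares over all features were 32.1% higher and 35.5% lower with ammonium, and 32.3% and 35.6% with valine. The anabolic glutamate dehydrogenase GDH1 stood 1.15 ± 0.11 higher with ammonium than with valine (adjusted p = 1.29e-05), and the catabolic GDH2 was lower by -2.31 ± 0.09 (adjusted p = 1.37e-09). URA2, which makes carbamoyl phosphate for pyrimidines, rose by 1.44 ± 0.10 with ammonium (adjusted p = 8.54e-09) and by 1.22 ± 0.10 with valine (adjusted p = 5.09e-08). Of 9 pyrimidine genes 7 rose and 2 fell with ammonium, and 7 rose and 1 fell with valine.

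Histidine and lysine synthesis genes were taken for comparison. Of 7 histidine genes 5 rose with ammonium and 7 with valine, with medians of 1.19 and 1.27. Over all features 32.1% were called higher and 35.5% lower with ammonium, and 32.3% and 35.6% with valine. HIS4 rose by 2.19 ± 0.10 with ammonium (adjusted p = 1.68e-10) and by 2.28 ± 0.10 with valine (adjusted p = 1.52e-10). Of 9 lysine genes 8 rose and 1 fell in either case (LYS5, named after its values were seen), with medians of 1.29 and 1.23. Between ammonium and valine, 1 of 7 histidine genes (HIS3, -0.22 ± 0.07, adjusted p = 0.04) and 1 of 9 lysine genes (LYS9, -0.38 ± 0.09, adjusted p = 0.00966) were called, both lower with ammonium. In this comparison 8.79% of all features were called lower and 7.59% higher, so these counts lay near the background. The HIS3 call was kept in 14 of 27 alternatives and lost without any 1 of ammonium samples 1 to 3, valine samples 1 and 2, no-addition sample 4 or batch sample 2 (adjusted p = 0.0505 to 0.144). The LYS9 call was lost within either slide. The medians were -0.20 and -0.17, beside -0.54 for the arginine genes. Whether the families differ in this respect was not tested.

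**Figure D4:**
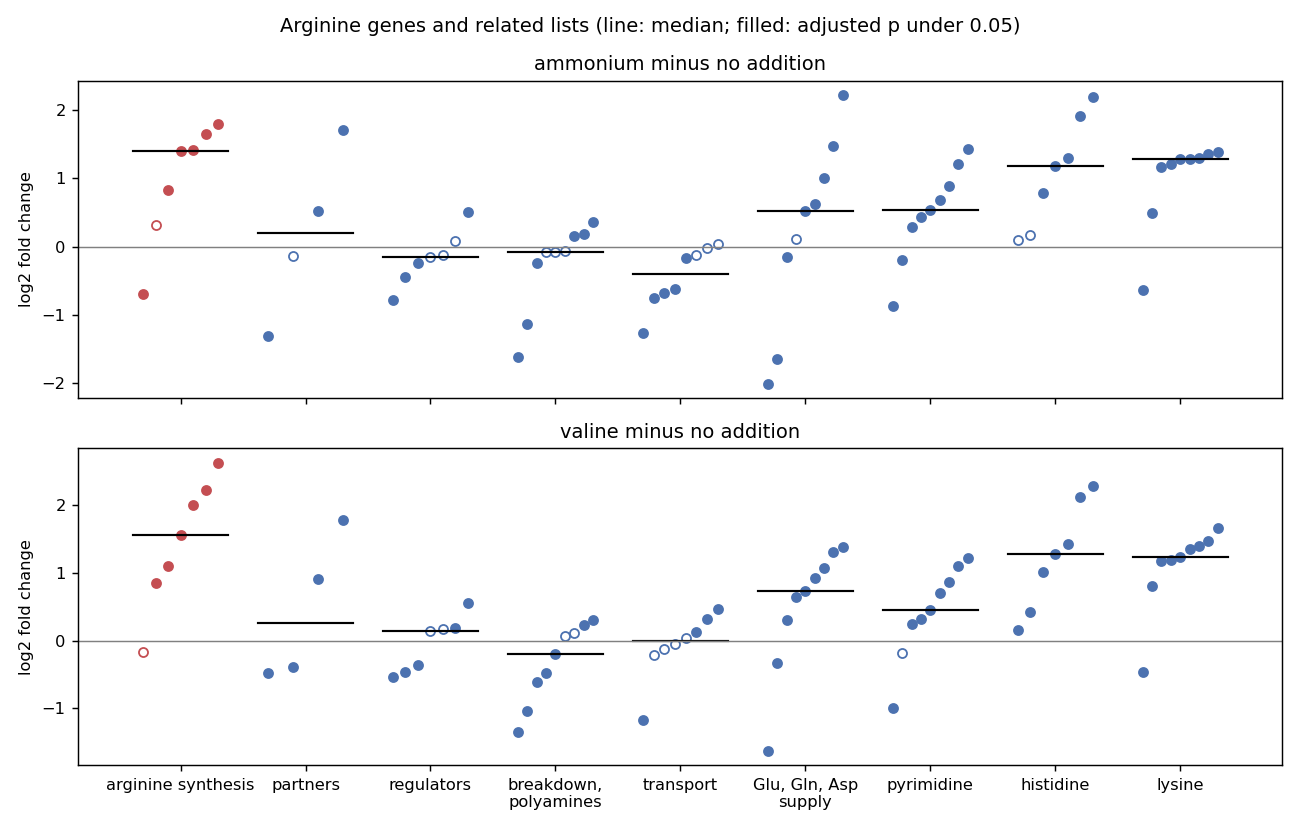
Log2 fold change (y axis) of arginine genes (red) and of 8 related gene lists (blue, x axis) with ammonium and with valine against no addition, with the list median as a line and filled points where the adjusted p was under 0.05. The arginine medians are 1.40 and 1.56, and CPA1 is the lowest red point in both panels.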

How the data were processed

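RNA was measured on 1-colour Cy3 arrays, 16 in all. The authors deposited 1 log2 intensity per probe and array (the scale was read from the values). R 2.13.1 and limma are listed in the submitters' processing notes. Normalization and background correction: not given in the sources used here. Array minima (5.50 to 5.56) and maxima (15.82 to 15.96) were nearly equal, so scale and centring are known only that far, and direction is that of single-dye intensities. The number of arrays limits the precision.

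Probes were named from the platform annotation: 5220 of 6271 had 1 symbol, 1051 had none and 0 had several, with 51 updated through RefSeq. Probes of a gene were averaged to 6248 features without a filter. The labels place 3, 3, 4 and 4 samples in the ammonium, valine, no-addition and batch groups; slide 1 held 1, 2, 1 and 3 arrays and slide 2 held 3, 1, 3 and 1. The 14 samples were fitted together in limma 3.58.1 (R 4.3.3, two-sided, 10 residual degrees of freedom), and the fit was tested on simulated data. Members and lists were chosen with earlier results of these data known. Named were all members, 8 set genes, the 3 members of each list with the smallest adjusted p, and the nearest profiles. Planned promoter searches were not run, as no sequences were used here. Alternatives covered slide, replicate number, normalization, dim features, weights, single probes and each sample left out. Plots used matplotlib 3.10.9 under Python 3.11.15.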

Additional observations from a re-analysis of the deposited data

Results flagged for a closer look

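Among 14 groups of 4 samples tested for a sample far from the rest, 2 had one, and chance gives about 1 in 20. ARG2 in no-addition sample 1 was at 8.44, above the other three. ARG1 in batch sample 3 was at 12.82, below the other three.

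The effects of ammonium and valine against the same no-addition samples differed by test in 5 genes, with ammonium minus valine at -0.81 for ARG1, -0.78 for ARG3, -0.35 for ARG4, -0.82 for ARG8 and -0.54 for CPA1.

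The sample whose labels name both supplements entered no comparison. It lay above the highest no-addition sample in ARG1 (14.08), ARG2 (9.17), ARG3 (11.77), ARG4 (12.38), ARG7 (11.49) and ARG8 (9.32), and CPA1 was at 12.05.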

How the results depend on the processing

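Of 42 member results, 35 were called, 25 of them in each of 27 alternatives, and no called member changed sign. Of the 7 not called, 4 stayed so throughout. The number of members called for ammonium against valine was 5, but 3 when only the compared groups were fitted, 3 with slide as a block, 0 within slide 1, 1 within slide 2, and 3 to 5 with a sample left out. For no addition against batch it was 4, but 2 within slide 2 and 6, with ARG3 and ARG8 gained, when only these groups were fitted, with array weights and without the 3 samples that stood apart. The median for ammonium against valine was -0.34 with array weights and -0.36 without the 3 samples that stood apart (added once the data had been seen), and -0.69 to -0.39 with a sample left out. The median for valine against no addition was 1.34 within slide 2. GCN4 was -0.28 between ammonium and valine but 0.00906 within slide 1. The cause was not tested where no construction shows it; a single slide leaves fewer samples. Same-numbered samples of different groups had deviations correlated from -0.57 to 0.31 and other pairs from -0.55 to 0.65, so numbers do not pair samples. The 3 samples that stood apart deviated together, at 0.65 for valine 3 with batch 1, 0.38 for ammonium 2 with batch 1 and 0.31 for ammonium 2 with valine 3. The p-values take samples as independent and do not allow for this. With the replicate block ARG8 between ammonium and valine remained at -0.82 but lost its call (adjusted p = 0.0694), the one change among members. Each member has 1 probe, so testing probes singly altered no level.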
